A study of Mus musculus with 12 samples.

Results

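The cytosolic ribosomal protein genes encode the protein part of the ribosome that translates nuclear messenger RNA. They were taken by symbol from the deposited table: a symbol made of Rpl or Rps, a number and at most a short paralog suffix, or one of Rplp0, Rplp1, Rplp2 and Rpsa. Kinases of the Rps6k family and pseudogene entries were left out. The rule used no measured value. It found 83 of the 23420 symbols in the table, 50 of the large (60S) and 33 of the small (40S) subunit. RNA was counted in 12 libraries of 100 cells each. The cells came from mouse epidermis and were gated as CD45+CD3-CD11b+MHCII+, a surface phenotype of Langerhans cells and related myeloid cells. The wild-type mice (wt) and the Cbfβ2 knockout mice (KO), missing 1 splice variant of Cbfb, whose product pairs with Runx proteins, were sampled at 2 ages, postnatal day 5 (P5) and 1.5 months (1.5M). The 4 groups, P5 wt, P5 KO, 1.5M wt and 1.5M KO, had 3 libraries each. The strain, the design of the knockout allele and any pooling of animals were not given in the sources that were used here. The 3 libraries of a group are separate library preparations. Separate animals are not stated, so p-values measure the spread between these preparations, which may be technical.

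A ribosome joins a small subunit, which binds messenger RNA and reads its codons, to a large subunit, which forms the peptide bond. Each ribosomal protein is needed in about the same number of copies per ribosome, and cells make these proteins in a coordinated way. Their mRNAs begin with a 5' terminal oligopyrimidine tract (TOP), an unbroken run of C and U through which the growth kinase mTOR and the RNA-binding protein Larp1 control translation. RNA counts such as these do not measure that translational step.

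Cbfb itself was counted at 4.97, 4.34 and 3.91 in P5 wt and at 3.63, 1.45 and 2.40 in P5 KO. It was 13.8, 7.15 and 10.7 in 1.5M wt against 1.92, 0.994 and 2.40 in 1.5M KO, where the difference passed limma's test (log2 difference −2.05, adjusted p = 0.00132). A tag at the 3' end does not check which splice form is missing. All values are molecule counts scaled by the authors so that each library sums to 37092, called scaled counts here. Depth was 30913 to 52208 molecules in the 9 libraries outside 1.5M KO and 74620 to 77419 in 1.5M KO. The marker genes of other cells differed between groups. The 17 Langerhans cell markers in the table made up 4.50% to 4.66% of P5 wt libraries and 2.79% to 3.65% of P5 KO libraries. At 1.5M they made up 11.6% to 13.0% (wt) and 6.36% to 7.42% (KO). Cd207, which encodes langerin and defines mature Langerhans cells, was at 0 in all P5 KO libraries and between 0.710 and 2.93 in P5 wt. The 17 macrophage and monocyte markers summed to 0.474% to 0.597%, 0.720% to 0.859%, 0.195% to 0.246% and 1.83% to 2.12% in the same order of groups. Csf1r stands on both of these lists. The Langerhans cell list also holds Cd74, H2-Ab1, H2-Aa and H2-Eb1, genes of MHC class II presentation, in cells gated as MHCII+. Its sum is therefore not a measure of Langerhans cell content alone. Id2 went against most of that list, with log2 differences of −2.56 with age in wt and 2.07 between 1.5M KO and 1.5M wt. With age in KO, 9 of its 16 tested markers passed limma's test as higher. Cldn1 (−1.53, adjusted p = 0.0137) and Cd24a (−2.13, adjusted p = 0.0206) passed as lower. Of the 15 tested macrophage and monocyte markers 7 were higher with age in KO, while Ccr2 was lower (−2.88, adjusted p = 0.000608). The 19 keratinocyte markers reached 2.02%, 0.670% and 0.741% in P5 KO libraries 1, 2 and 3 and at most 0.288% in the other 9 libraries. Erythroid markers (7 in the table) were at 0.553%, 0.720% and 0.00537% in the P5 KO libraries and at most 0.00766% elsewhere, and neutrophil markers (8 in the table) at 0.129% to 0.614% and at most 0.0369%. All 7 erythroid markers were at 0 in both 1.5M groups. The T cell markers Cd3e and Cd3g were at 0 in every library, and the T cell sum reached at most 0.0103% and the melanocyte sum at most 0.0067%.

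Sequence at the transcription start is shown first, for called members other than Rpl32 and for members with a long pyrimidine run. It comes first because the start of the mRNA is the feature that ribosomal protein genes are known to share. RefSeq promoters on GRCm38.p6 were matched for 62 of the 83 members (74 promoters). Each window below holds 15 bases before and 15 bases from the annotated start, 5' to 3' on the gene's strand, and capitals mark the longest unbroken run of at least 5 C or T that touches the window. Rpl41, Rps19 and Rps28 hold no such run at the start shown, Rps2 and Rpl35a do, and the other 5 were picked for long runs after the sequences had been seen.
Rpl41 (chr10:128549154-128549183, minus strand): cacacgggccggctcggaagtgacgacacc
Rps2 (chr17:24720048-24720077, plus strand): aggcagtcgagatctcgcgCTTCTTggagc
Rps19 (chr7:24884577-24884606, plus strand): tccgaaatctcgcgagactcgacgcccgac
Rps28 (chr17:33824548-33824577, minus strand): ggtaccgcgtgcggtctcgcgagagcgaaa
Rpl35a (chr16:33056467-33056496, plus strand): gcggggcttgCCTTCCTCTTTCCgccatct
Rpl15 (chr14:18270972-18271001, minus strand): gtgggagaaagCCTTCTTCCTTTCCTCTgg
Rpl28 (chr7:4792950-4792979, plus strand): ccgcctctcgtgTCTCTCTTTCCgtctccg
Rps18 (chr17:33955651-33955680, minus strand): tacgtcacttccgCTCTCTCTTCCacagga
Rps6 (chr4:86857353-86857382, minus strand): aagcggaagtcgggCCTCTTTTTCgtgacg
Rps27 (chr3:90213634-90213663, minus strand): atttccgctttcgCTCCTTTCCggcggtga

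The run in Rpl15 is 17 bases long, and those in Rpl35a, Rpl28, Rps18, Rps6 and Rps27 are 13, 11, 11, 10 and 9. Annotated starts can be off by several bases, and genes can have more than 1 start (Rps19 and Rpl35a each have 3 in this table), so a window without a run does not show that the mRNA lacks a TOP. A run of at least 8 C or T touched the window in 41.9% of member promoters and in 17.6% of all 32851 RefSeq promoters in the table. For a run of at least 5 the shares were 77.0% and 55.7%. Over the whole 300 bases, on both strands, CGGAAGT, the core recognised by ETS factors such as Gabpa, was present in 31.1% of member promoters and 6.42% of all. GGGCGG, the GC box of Sp1, was present in 59.5% and 35.7%, AANATGGCG, a form of the Yy1 motif, in 10.8% and 2.38%, and the TATA box TATAAA in 8.11% and 13.6%. Matches to different motifs overlapped in 2 member promoters. Such a match is a description of the letters and not evidence of binding.

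Ribosomal protein mRNA was among the most abundant in these cells, and 60 of the 100 genes with the highest mean over the 12 libraries were members. Together the 83 genes took 16.2%, 17.3% and 17.7% of the library in P5 wt, and 13.3%, 16.4% and 14.3% in P5 KO. They took 14.5%, 14.4% and 14.1% in the 1.5M wt libraries, against 12.01%, 13.1% and 12.8% in the KO libraries of that age. P5 wt was the highest group and 1.5M KO the lowest, and the 1.5M groups did not overlap. P5 KO overlapped both P5 wt, through its library 2, and 1.5M wt. The group means at P5 were 17.0% ± 0.776 (wt) and 14.6% ± 1.56 (KO), and at 1.5M 14.3% ± 0.247 (wt) and 12.7% ± 0.573 (KO; SD, n = 3 each). The P5 KO mean was 0.859 times that of P5 wt, and the 1.5M KO mean 0.882 times that of 1.5M wt. The 1.5M mean was 0.841 times the P5 mean in wt and 0.864 times in KO. A share depends on everything else in the library, and a lower share is not a lower number of molecules. The approximate molecules of the 83 genes numbered 5912 to 8442 (P5 wt) and 4410 to 8341 (P5 KO) per library. At 1.5M they numbered 5854 to 7470 (wt) and 9288 to 9942 (KO), so the group with the lowest share had the most. The libraries of 1.5M KO were also the deepest, and the part of depth was not tested. With bulk RNA of 100 cells, the number of cells of one type and the amount of this RNA per cell cannot be told apart. The marker sums given above moved with the same groups, and their part in these shares was not tested. After the Langerhans cell markers were left out of the library total, the 4 means were 17.9%, 15.1%, 16.3% and 13.6%, which put P5 KO below 1.5M wt. After keratinocyte, neutrophil and erythroid genes were left out they were 17.1%, 14.9%, 14.4% and 12.7%.

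**Figure D1:**
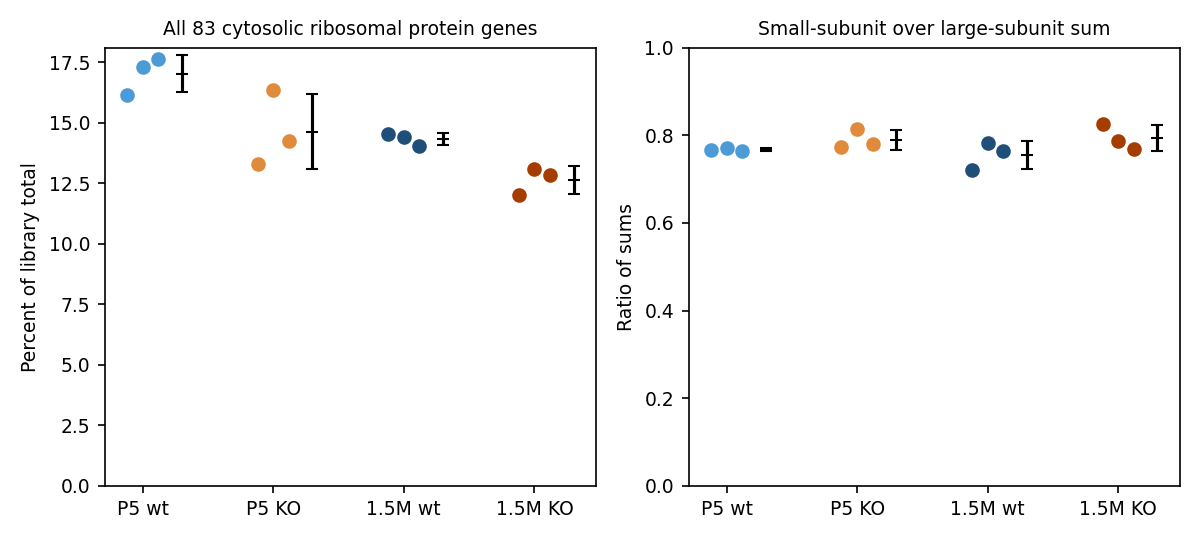
Left, percent of each library's total taken by the 83 cytosolic ribosomal protein genes; right, ratio of the small-subunit sum to the large-subunit sum. Points are libraries and the bars beside them mean ± SD (n = 3). The share runs from 17.0% in P5 wt to 12.7% in 1.5M KO by group mean, while the ratio stays between 0.720 and 0.825 in all 12 libraries.

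The 50 large-subunit genes took 9.64% ± 0.437 (P5 wt), 8.18% ± 0.771 (P5 KO), 8.17% ± 0.254 (1.5M wt) and 7.06% ± 0.416 (1.5M KO). The 33 small-subunit genes took 7.40% ± 0.340, 6.46% ± 0.794, 6.17% ± 0.135 and 5.59% ± 0.174 in the same order (SD, n = 3). The ratio of small to large was 0.768 ± 0.00371, 0.789 ± 0.0221, 0.756 ± 0.0321 and 0.794 ± 0.0290. Every P5 KO library (0.773 to 0.814) lay above every P5 wt library (0.765 to 0.772), and the other pairs of groups compared overlapped.

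Of the 83 members, 80 were above 0 in at least 3 libraries and were tested, and all 80 were above 0 in every library. The exceptions are paralogs known from testis, or from heart and skeletal muscle. Rpl10l was at 0 in all 12 libraries. Rpl39l was above 0 in P5 KO library 3 alone, at 1.20, and Rpl3l in 1.5M KO library 3 alone, at 0.479, values of 1 molecule. The counts are tags of 1 per molecule at the 3' end and were not divided by length, so they compare numbers of mRNAs as far as each gene's 3' end was captured equally well. On that scale 77 members had a mean of at least 25. Rpl41, a very short protein at the subunit interface, was the highest with a mean of 144 over the 12 libraries and rank 12 among all genes. It was followed by Rps29 (129), a zinc-binding protein of the 40S head, Rplp1 (122), an acidic stalk protein, Rpl13 (120.0) and Rps27 (117). The lowest tested members were Rps4y2 (2.20), Rps27l (8.52), Rpl36al (13.2), Rpl30 (25.3) and Rpl29 (26.0), the first 3 of them paralogs of Rps4x, Rps27 and Rpl36a. Rps27 had values that are fractions of 1 molecule in 7 libraries and Rpl30 in 4. Fractions can arise where molecules are shared between similar sequences, but their origin here was not tested. In all, 21 members had a fractional value in at least 1 library and 8 in at least 6, and these levels are uncertain.

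**Figure D2:**
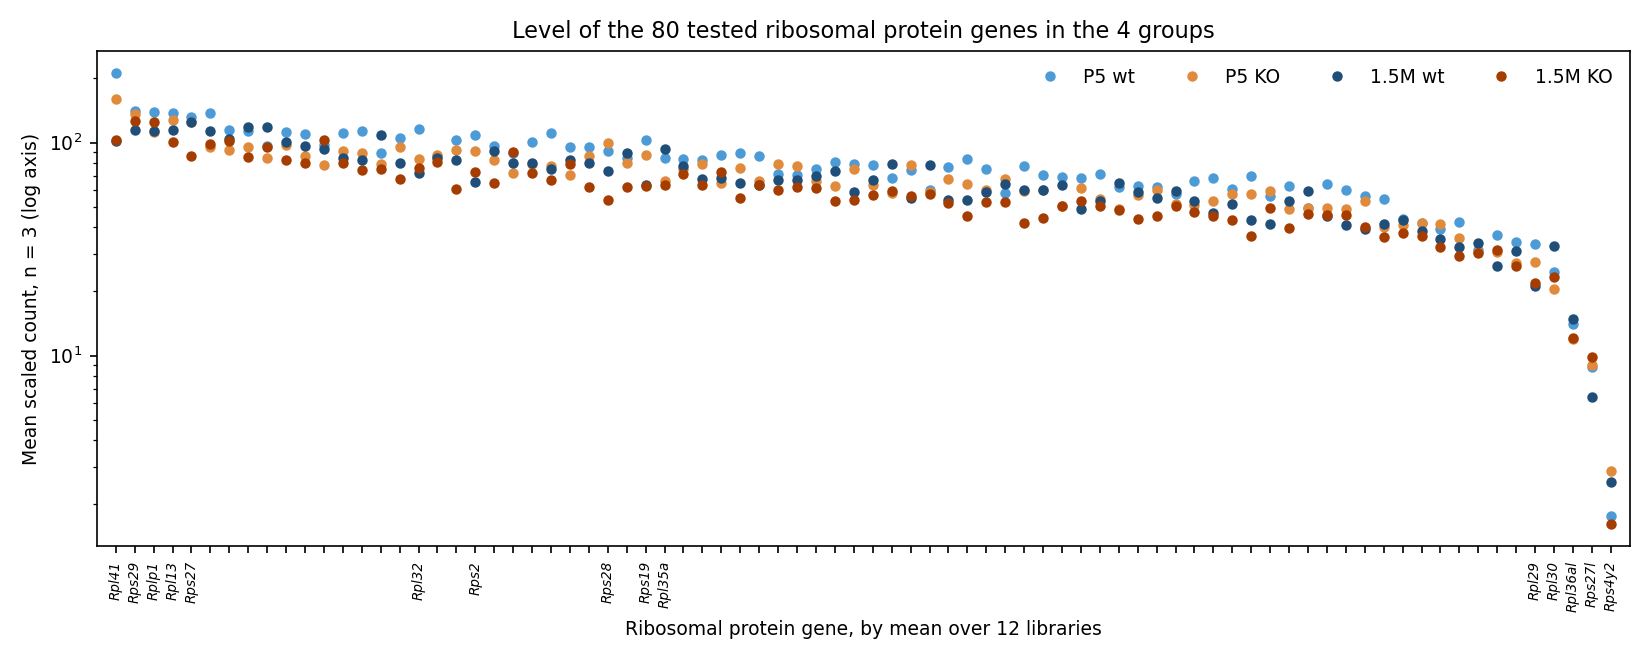
Mean scaled count in each group (n = 3, log axis) for the 80 tested ribosomal protein genes, ordered by their mean over the 12 libraries, with the 5 highest, the 5 lowest and the called members named. From Rpl41 at 144 to Rpl30 at 25.3 the levels fall gradually, and Rpl36al, Rps27l and Rps4y2 lie below.

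The order of the members was much the same in every group. Spearman's rho between group means of the 77 members with a mean of at least 25 ran from 0.861 (P5 KO with 1.5M wt) to 0.931 (P5 wt with P5 KO). It is a description across genes, which share libraries and depth. Levels were close to counting precision within groups. The variance between the libraries of a group, divided by the variance that counting molecules alone would give, had a median of 1.45 over these 77 members. It was 1.68 over the 136 other genes with a mean of at least 25, and 51 of the 77 members were below 2. Rps23, a decoding-centre protein, had the highest ratio among members, 5.53, with 67.2, 139 and 69.6 in the 3 P5 KO libraries. Rps3a1 had the lowest, 0.446. The length of the annotated mRNA, which ran from 345 to 2045 bases over 74 of these members, had a Spearman's rho of −0.04 with the mean level and of −0.21 to 0.07 with the differences described next.

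At P5, no ribosomal protein gene passed the test between KO and wt, although most were lower in KO. Of the 80 members 69 had a negative log2 difference, with a median of −0.24, against 50.5% of all genes and a median of −0.01. Limma with Benjamini-Hochberg adjustment over all 10023 genes called 0 members, where it called 1.8% of all genes (0.649% lower and 1.15% higher). At an unadjusted p under 0.05 there were 16 members, all lower in KO, against 6.13% of all genes in that direction and 6.62% in the other. They are 20.0% of members, close to the 19.9% lower among the 136 other genes with a mean of at least 25. Of those other genes 22.8% were higher. The count of lower members was 5 under median-of-ratios, 3 under quantile and 8 under trimmed-mean scaling, and 10 both without keratinocyte, neutrophil and erythroid genes and in a fit of the 6 P5 libraries alone with genes without variance kept. It was 6, 25 and 7 without P5 KO library 1, 2 or 3, and 8 and 7 without P5 wt library 2 or 3. Rps18, a protein of the 40S head, and Rpl32, of the 60S subunit, were among the members with the most negative differences. Rps18 counted 97.3, 124 and 112 in P5 wt and 74.5, 103 and 55.2 in P5 KO, groups that overlap (log2 difference −0.55, SE 0.19, adjusted p = 0.172). Rpl32 was 116 ± 18.9 against 83.9 ± 24.3 (SD, n = 3; −0.48, adjusted p = 0.227), groups that overlap. Among members with a mean of at least 10 Rpl13a (0.21) and Rps3 (0.13) were among the most positive, with adjusted p of at least 0.679. The groups did not overlap in 16 of the 80 members, all lower in KO, where 6.02% of all genes were lower and 6.23% higher without overlap. Among the 136 other genes with a mean of at least 25, 19.9% were lower and 20.6% higher without overlap, against 20.0% of members lower. From P5 wt to P5 KO the mean marker sums went from 4.57% to 3.22% (Langerhans cell), 0.541% to 0.771% (macrophage and monocyte), 0.246% to 1.14% (keratinocyte), 0.0231% to 0.326% (neutrophil) and 0.00353% to 0.426% (erythroid), and their part in these differences was not tested. Without the last 3 lists in the scaling the member median was −0.22. P5 KO library 2 lay above the other P5 KO libraries in the summed share. Without it 2 members were called, Rps18 (−0.78, adjusted p = 0.0414) and Rpl32 (−0.70, adjusted p = 0.0454), the latter with fractional values in 9 libraries. In that fit 107 of 9744 genes were called, 49 of them lower.

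**Figure D3:**
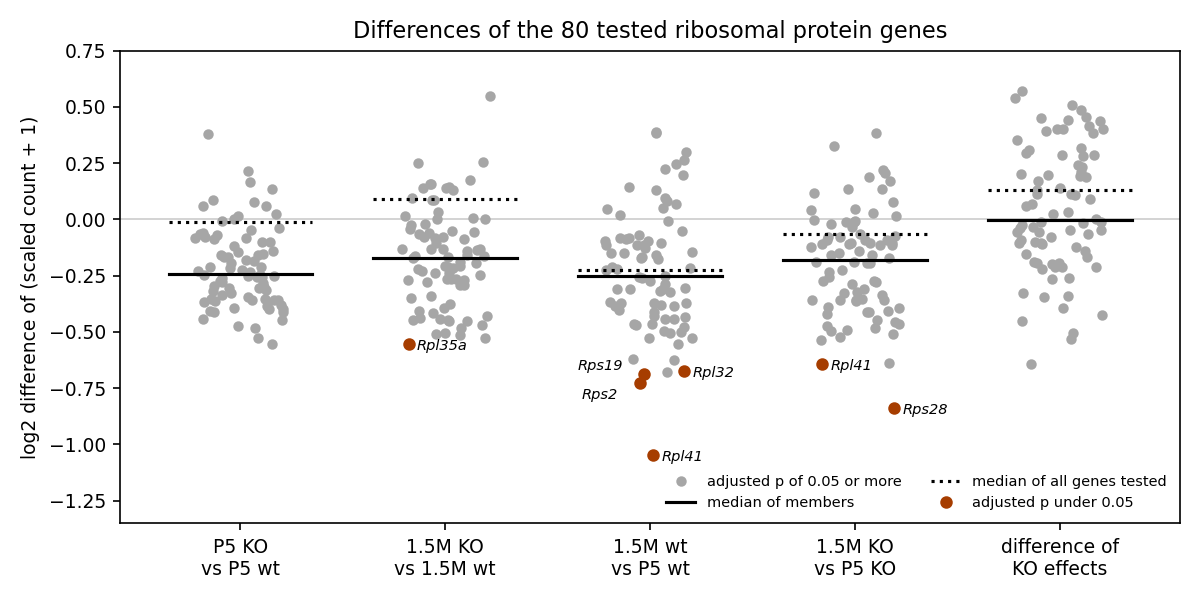
Log2 difference of (scaled count + 1) for each of the 80 tested ribosomal protein genes in the 5 comparisons; points are genes, spread sideways for legibility. Solid lines are the medians of the members and dotted lines those of all 10023 genes tested. Members passing an adjusted p of 0.05 are coloured and named, and all of them are lower in the first-named group.

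At 1.5M, a single member passed the test between KO and wt. Rpl35a, a 60S protein whose human gene is mutated in some families with Diamond-Blackfan anaemia, counted 104, 99.4 and 77.3 in the 1.5M wt libraries, against 67.6, 64.1 and 57.5 in 1.5M KO. The groups did not overlap, and Rpl35a fell by 0.55 on the log2 scale (SE 0.16, adjusted p = 0.0434). The call was lost in 14 of 27 alternative settings, among them leaving out 1.5M wt library 1 (adjusted p = 0.196) or 2 (0.169) and 1.5M KO library 1 (0.0582), 2 (0.122) or 3 (0.202). It was also lost without P5 wt library 2 (0.0507) or 3 (0.0502), which enter through the shared spread. The call amounts to 1 of 80 members where 5.28% of all genes were called, 2.04% lower and 3.24% higher. Next in size were Rpl37a (−0.53, adjusted p = 0.0714), a zinc-binding 60S protein, and Rps27 (−0.51, adjusted p = 0.0658). Of the 80 members 62 were negative with a median of −0.17, against 40.8% of all genes and a median of 0.09. An unadjusted p under 0.05 was reached by 17 members, all lower in KO, where 5.45% of all genes were lower and 9.44% higher at that level. Of the 136 other genes with a mean of at least 25, 22.8% were lower and 26.5% higher, against 21.2% of members lower. Under trimmed-mean scaling 4 members were lower and 3 higher, without Langerhans cell markers 26 were lower, and without 1.5M KO library 1 or 1.5M wt library 2 the number lower was 8 or 11. The groups did not overlap in 21 members that were lower in KO (7.18% of all genes) and in 3 that were higher (13.9%), namely Rpl23, Rpl36a and Rps27l. The shares lower and higher without overlap were 26.2% and 3.75% of members, and 24.3% and 26.5% of the 136 other genes. The macrophage marker sum was higher and the Langerhans cell sum lower in these KO libraries, and their part in these differences was not tested. With the Langerhans cell markers left out of the scaling, 5 members were called, all lower. In that fit 506 of 10007 genes were called, 211 of them lower.

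With age in wild type, 4 members fell, and these include the most abundant. Rpl41 counted 190.4, 229 and 215 in P5 wt and 109, 99.4 and 96.8 in 1.5M wt. Its groups lie far apart, and it fell by 1.05 on the log2 scale (SE 0.14, adjusted p = 2.88e-05). This call held in all 27 alternative settings, where the difference ran from −1.12 to −0.81 and the adjusted p reached at most 0.0224. Rps2, a 40S protein at the mRNA entry channel, counted 95.9, 114 and 114 in P5 wt and 55.3, 66.5 and 73.7 in 1.5M wt. Its groups did not overlap either (−0.73, SE 0.16, adjusted p = 0.00718). Rps19, a 40S head protein and the gene most often mutated in Diamond-Blackfan anaemia, counted 89.2, 102 and 116 against 64.0, 64.0 and 60.9, again without overlap (−0.69, SE 0.15, adjusted p = 0.00735). Rpl32 counted 126, 93.8 and 127 against 72.3, 67.2 and 75.1, without overlap (−0.67, SE 0.18, adjusted p = 0.0266). Rps19 had fractional values in 10 libraries and Rpl32 in 9. Both may share molecules with copies elsewhere in the genome, which was not tested.

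The calls of Rps2, Rps19 and Rpl32 depended on scaling and on the libraries fitted. Under median-of-ratios scaling their adjusted p was 0.0704, 0.0810 and 0.188, and under trimmed-mean scaling 0.0849, 0.0954 and 0.249. In a fit of the 6 wt libraries alone that kept genes without variance it was 0.0795, 0.0614 and 0.101. When those genes were dropped from the same fit, each of these calls held. Keeping them lowered the calls over all genes from 370 to 111. Rps2 was also lost without 1.5M wt library 1 (0.0521) and Rps19 without P5 wt library 3 (0.0533). The call of Rpl32 ended when P5 wt library 1 (0.110) or 3 (0.109) was left out, without any of the 1.5M wt libraries (0.0682, 0.0967 and 0.0601), after thinning (0.0553) and with Langerhans cell markers left out of the scaling (0.0755). The 4 members compare with 2.84% of all genes lower, 2.36% higher and 5.21% called in either direction. At an unadjusted p under 0.05, 26 members were lower and 1 higher, against 12.1% and 6.11% of all genes. Under both median-of-ratios and trimmed-mean scaling 4 were lower and 8 higher, with 42 and 41 of the 80 differences negative. Without Langerhans cell markers 14 were lower and 5 higher, and without P5 wt library 2 there were 17 lower and 0 higher. In 33 members 1.5M wt lay below P5 wt without overlap (13.2% of all genes), and in 3, Rpl12, Rpl30 and Rps21, above it (6.06%). The shares below and above were 41.2% and 3.75% of members, and 27.9% and 39.0% of the 136 other genes. The median of the 80 members was −0.25 and that of all genes −0.22, with 65 members and 62.6% of all genes negative. From P5 wt to 1.5M wt the mean marker sums went from 4.57% to 12.2% (Langerhans cell), 0.541% to 0.221% (macrophage and monocyte) and 0.246% to 0.0744% (keratinocyte), and their part in these differences was not tested. Without Langerhans cell markers in the scaling the member median was −0.13, with 53 members negative. The most positive members with a mean of at least 10 were Rpl30 (0.39), Rps21 (0.38) and Rps9 (0.30). Rps21 counted 60.4, 53.2 and 66.4 in P5 wt and 76.5, 77.3 and 80.9 in 1.5M wt (adjusted p = 0.213). It was called higher under both median-of-ratios scaling (0.60, adjusted p = 0.0324) and trimmed-mean scaling (0.61, adjusted p = 0.0340).

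**Figure D4:**
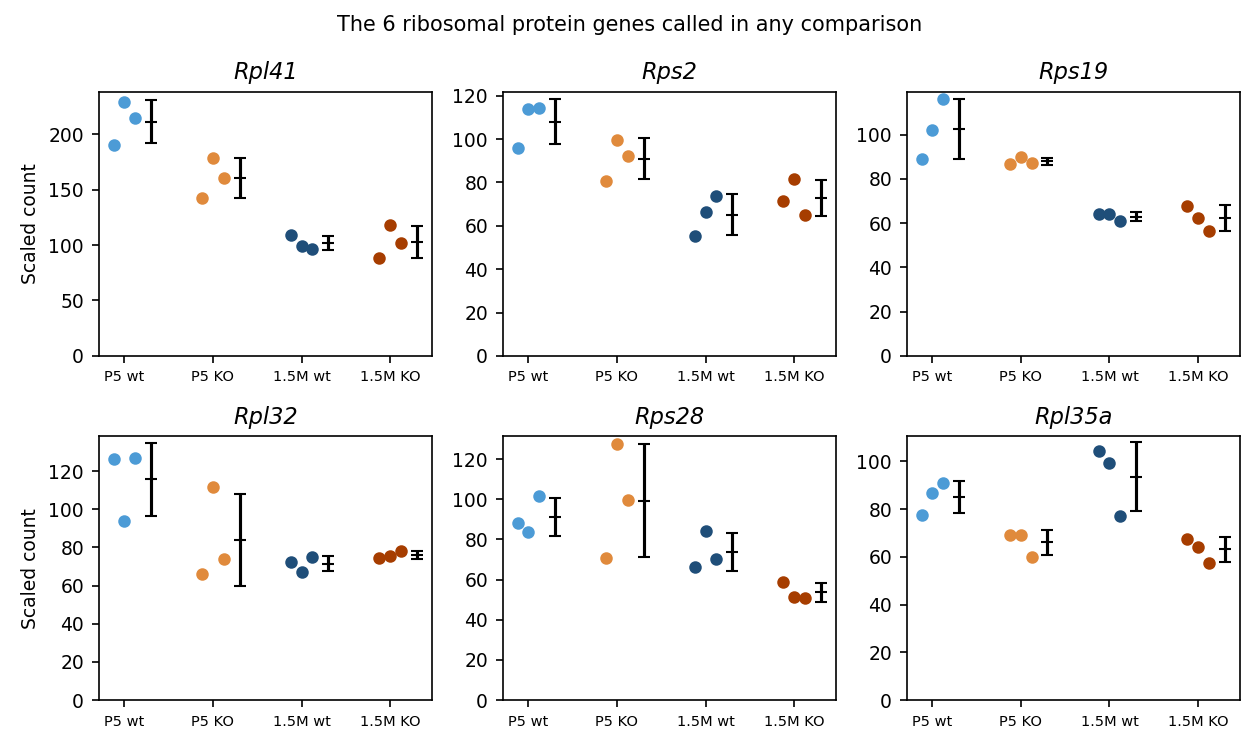
Scaled counts of the 6 ribosomal protein genes called in at least 1 comparison; points are libraries and bars mean ± SD (n = 3), with each vertical axis starting at 0. Rpl41 lies between 190.4 and 229 in P5 wt and between 88.7 and 118 in both 1.5M groups together.

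With age in the knockout, 2 members fell. Rpl41 counted 143, 178 and 161 in P5 KO and 88.7, 118 and 102 in 1.5M KO, without overlap (−0.64, SE 0.14, adjusted p = 0.00939). Rps28, a small 40S protein near the mRNA exit, counted 70.8, 127 and 99.6 in P5 KO and 59.0, 51.2 and 50.8 in 1.5M KO. The groups did not overlap although the P5 KO libraries spread widely (−0.84, SE 0.19, adjusted p = 0.0111). Rps28 was lost without P5 KO library 2 (adjusted p = 0.0771), after thinning all libraries to the same depth (0.0570) and under trimmed-mean scaling (0.210). It was also lost in the fit of the 6 KO libraries alone with genes without variance kept (0.140). Rpl41 was lost without 1.5M KO library 1 (0.0530), in both fits of the 6 KO libraries alone (0.0554, and 0.123 with genes without variance kept) and under trimmed-mean scaling (0.348). The 2 calls compare with 1.43% of all genes lower, 1.72% higher and 3.14% called in either direction. At an unadjusted p under 0.05, 22 members were lower and 1 higher, against 7.81% and 6.42% of all genes. The shares were 27.5% and 1.25% of members, and 9.56% and 39.0% of the 136 other genes with a mean of at least 25. Under median-of-ratios scaling 8 members were lower and 2 higher, and under trimmed-mean scaling 1 was lower and 11 were higher. Without P5 KO library 2 or 1.5M KO library 1 the number lower was 11, and in both fits of the 6 KO libraries alone it was 14. Lower without overlap were 21 members (10% of all genes), and higher were 2, Rpl23 and Rps12 (8.15%). The shares were 26.2% and 2.5% of members, and 8.09% and 43.4% of the 136 other genes. The median of the members was −0.18 and that of all genes −0.06, with 66 members and 53.7% of all genes negative. Rps12, a 40S protein, counted 76.3, 87.3 and 70.8 in P5 KO against 90.6, 114 and 103 in 1.5M KO (0.39, adjusted p = 0.198), and Rpl28 had a difference of −0.64 (adjusted p = 0.124). From P5 KO to 1.5M KO the mean marker sums went from 3.22% to 6.75% (Langerhans cell), 0.771% to 2.01% (macrophage and monocyte), 1.14% to 0.0444% (keratinocyte), 0.326% to 0.0127% (neutrophil) and 0.426% to 0 (erythroid). Their part in these differences was not tested. Without Langerhans cell markers in the scaling the member median was −0.13.

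The knockout effect was not shown to differ between the ages for any member. The difference of the 2 effects was called for 0 members and 2.0% of all genes (0.678% negative and 1.32% positive). At an unadjusted p under 0.05 there were 3 members, Rpl3, Rpl32 and Rps12, all more positive at 1.5M, against 8.4% of all genes in that direction and 4.89% in the other. The median was −0.00, with 40 members and 43.6% of all genes negative. Among members with a mean of at least 10 the lowest was −0.53 for Rps28 (adjusted p = 0.384) and the highest 0.57 for Rpl32 (0.321). For Rpl41 the knockout effect was −0.40 at P5 (adjusted p = 0.186) and 0.01 at 1.5M (95% interval −0.28 to 0.29).

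By structural role, the stalk of the large subunit, which recruits elongation factors, showed no called member. Rplp0, the stalk base, counted 89.5, 79.2 and 91.8 in P5 wt, 91.7, 100.4 and 70.8 in P5 KO. At 1.5M it counted 78.3, 101 and 73.7 (wt) and 91.1, 74.1 and 77.1 (KO). Its 4 groups overlapped throughout, with differences from −0.11 to 0.00. Rplp1 averaged 138 ± 10.6, 112 ± 10.3, 113 ± 23.2 and 124 ± 22.6 in the same order, and Rplp2 61.8 ± 6.14, 48.6 ± 10.8, 64.3 ± 10.1 and 48.4 ± 4.33. Rplp1 had no overlap at P5 (lower in KO) and Rplp2 none at 1.5M (lower in KO), with adjusted p of 0.452 and 0.320.

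Rpl5 and Rpl11, which carry 5S RNA into the large subunit and bind Mdm2 when assembly fails, had their lowest counts in 1.5M KO. Rpl5 counted 65.4, 81.4 and 86.0 in P5 wt, 65.4, 50.9 and 61.2 in P5 KO. At 1.5M it counted 61.7, 52.9 and 64.0 (wt) and 35.5, 44.7 and 45.0 (KO). Rpl11 counted 89.5, 98.7 and 99.6, then 70.8, 85.1 and 92.4, then 106, 78.7 and 88.0, and 60.9, 67.6 and 64.2 in 1.5M KO. Every 1.5M KO library lay below every other library in both genes. Between 1.5M KO and 1.5M wt the differences were −0.51 (SE 0.18, adjusted p = 0.121) and −0.49 (SE 0.16, adjusted p = 0.0819). The summed count of the pair was 132 to 168 (1.5M wt) and 96.4 to 112 (1.5M KO).

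Rpl17, Rpl4 and Rpl39 line the exit tunnel, through which the new chain leaves the ribosome, and each gene had its lowest group mean in 1.5M KO. Rpl17 counted 99.5, 90.04 and 97.7 in P5 wt, 73.6, 90.2 and 94.8 in P5 KO. At 1.5M it counted 76.5, 82.99 and 80.9 (wt) and 55.1, 65.6 and 64.2 (KO). It was lower without overlap in 3 of the 4 comparisons of groups, and its adjusted p was 0.102 for age in KO and 0.205 for KO at 1.5M. Rpl4 averaged 61.9 ± 3.90, 59.6 ± 10.8, 54.6 ± 3.65 and 45.2 ± 7.41, and Rpl39 113 ± 3.17, 95.2 ± 15.7, 119 ± 25.9 and 85.4 ± 12.2 (P5 wt, P5 KO, 1.5M wt, 1.5M KO). None of the 3 was called in any comparison.

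Of the small-subunit members named by role, which include proteins of the head and decoding centre, Rps19 was the called member. Rpsa, which also occurs as the laminin receptor, counted 103, 105 and 106 in P5 wt, 107, 96.7 and 82.8 in P5 KO. At 1.5M it counted 74.6, 80.8 and 86.2 (wt) and 61.9, 69.6 and 71.9 (KO). Both 1.5M groups lay below P5 wt and the differences with age were −0.38 in wt (adjusted p = 0.161) and −0.48 in KO (0.0782). Rps6, the S6 kinase substrate, averaged 67.9 ± 11.5, 53.2 ± 5.61, 46.4 ± 4.63 and 45.1 ± 4.60, with −0.53 for age in wt (adjusted p = 0.0988). Rps15 averaged 59.6 ± 9.85, 48.9 ± 7.78, 41.0 ± 6.70 and 45.5 ± 3.27 (−0.53, adjusted p = 0.125). Rps3, which lies at the mRNA entry, averaged 70.8 ± 2.16, 77.9 ± 5.13, 66.6 ± 15.7 and 62.0 ± 4.68, and Rps14 57.1 ± 12.9, 51.2 ± 10.1, 59.0 ± 19.2 and 50.6 ± 11.6, with adjusted p of at least 0.414 in every comparison. Rps23 averaged 102 ± 4.51, 91.9 ± 40.7, 82.9 ± 12.4 and 60.2 ± 4.31, and was lower without overlap in 3 comparisons with adjusted p of 0.228 to 0.470. Rps27a, made as a fusion with ubiquitin, averaged 84.1 ± 11.1, 74.9 ± 10.7, 77.7 ± 6.70 and 70.8 ± 6.44, and its differences lay between −0.17 and −0.07 in the 4 comparisons of groups.

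The expressed paralogs did not follow one direction. Rps27l, a p53-responsive relative of Rps27, counted 12.1, 6.51 and 7.81 in P5 wt, 9.08, 10.9 and 7.20 in P5 KO. At 1.5M it counted 6.45, 6.44 and 6.22 (wt) and 11.5, 9.44 and 8.62 (KO). At 1.5M the KO libraries all lay above the wt libraries, and the difference did not pass (0.55, SE 0.30, adjusted p = 0.437). The related Rps27 had a difference of −0.51 in the same comparison. Rpl36al averaged 14.0 ± 4.16, 11.99 ± 5.41, 14.8 ± 2.91 and 12.1 ± 1.89, and Rps4y2, at a few molecules per library, 1.76 ± 0.678, 2.87 ± 1.95, 2.56 ± 2.41 and 1.62 ± 0.576.

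The spread of differences among members was close to the error of a single gene at P5 and wider in the other comparisons. The median standard error was 0.17 throughout. The SD of the 80 differences was 0.18 at P5, 0.22 at 1.5M, 0.27 with age in wt and 0.24 with age in KO. The large-subunit medians were −0.25, −0.21, −0.22 and −0.19 in the order P5 KO against wt, 1.5M KO against wt, age in wt and age in KO, and the small-subunit medians −0.21, −0.13, −0.31 and −0.17. The 136 other genes with a mean of at least 25 varied far more, with SDs of 0.87 to 1.56 in these comparisons. Between 21.3% and 47.1% of them were called, against 0% to 5.00% of the members.

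The size of the family's differences depended on how libraries were put on one scale, and with age in KO so did the sign of the median. In the other comparisons of groups the member median kept its sign in every alternative setting. Trimmed-mean scaling moved the median of all genes with age from −0.22 to −0.11 in wt and from −0.06 to 0.10 in KO, and median-of-ratios and quantile scaling moved it in wt to −0.11 and −0.06. Under it the member median went from −0.25 to −0.02 with age in wt. With age in KO it went from −0.18 to 0.18 and so turned sign, with 61 members higher and 19 lower, and Rps12 (0.75, adjusted p = 0.00426) and Rpl23 (0.69, adjusted p = 0.0151) were called higher. At 1.5M trimmed-mean scaling brought the KO median to −0.00. Its factors were 0.83 to 0.87 in the 1.5M KO libraries, which are the deepest. They were 0.95 to 0.96 in 1.5M wt and 1.05 to 1.16 in the P5 libraries. After thinning to equal depth, without trimmed-mean scaling, the member median with age in KO was −0.22. The part of depth in the turn of sign was not tested. Median-of-ratios scaling, which used 2413 genes above 0 in all libraries, 80 of them members, gave −0.15 at P5, −0.20 at 1.5M, −0.03 with age in wt and −0.07 with age in KO. The P5 median was negative under each of the 8 scalings, from −0.28 to −0.14. Among the called members, Rpl41 with age in wt passed under every scaling.

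**Figure D5:**
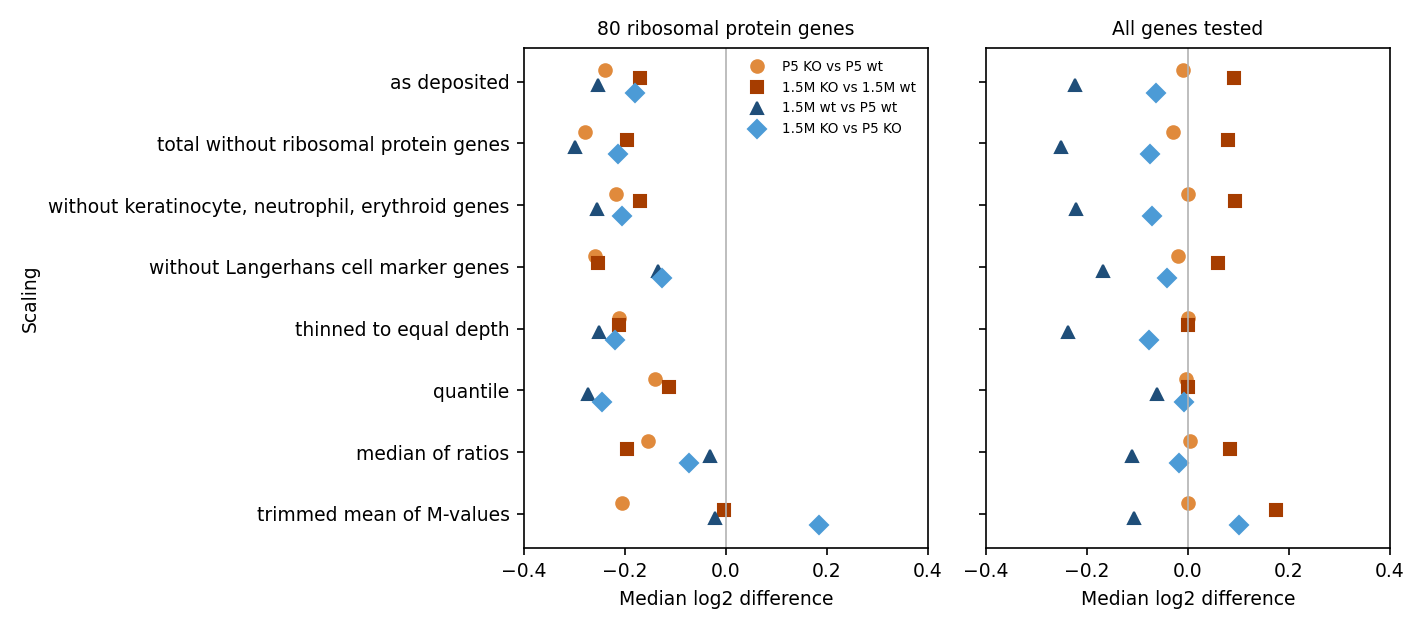
Median log2 difference under 8 ways of scaling the libraries, for the 80 tested ribosomal protein genes (left) and for all genes tested (right); symbols are the 4 comparisons of groups. With age in KO the member median is −0.18 on the deposited scale and 0.18 under trimmed-mean scaling, and the P5 knockout median stays between −0.28 and −0.14.

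Genes that work with the ribosome were called in a few cases, where 1.8% to 5.28% of all genes were called per comparison. At such shares, lists of this size would hold few calls in any event. The same shares apply to the lists that follow. Neither Fau, a ribosomal protein made as a ubiquitin-like fusion, nor Gnb2l1, the scaffold known as RACK1, was called in any comparison, and Fau averaged 155 ± 14.2 (P5 wt), 128 ± 23.1 (P5 KO), 146 ± 12.8 (1.5M wt) and 113 ± 12.5 (1.5M KO). Mitochondrial ribosomal proteins, which serve the separate ribosome of that organelle, had 0 of 75 called in all 5 comparisons, with medians of −0.07 at P5, 0.10 at 1.5M, −0.28 with age in wt and −0.12 with age in KO. The medians of all genes were −0.01, 0.09, −0.22 and −0.06 in the same order. Of 38 proteasome genes, Psmc1 rose in 1.5M KO (1.58, adjusted p = 0.0434) and Psmb1 fell with age in wt (−1.16, adjusted p = 0.0139). RNA polymerase I genes had 0 of 13 called and ribosome biogenesis genes 1 of 30, Gar1, which rose in P5 KO from 0 in all P5 wt libraries to 2.72, 2.91 and 1.20 (adjusted p = 0.0445). In these P5 KO libraries 1 molecule is 0.908, 0.727 and 1.20, so Gar1 rests on a few molecules or fewer.

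Of 9 elongation factor genes only Tpt1 was called, which stands on the TOP list too. Of 25 other mRNAs with a known TOP, Tpt1 and Nap1l1 were called. Tpt1, which encodes translationally controlled tumour protein, counted 172, 186 and 232 in P5 wt and 339, 270.4 and 249.7 in 1.5M wt. It rose with age in wt by 0.54 (adjusted p = 0.0197) and fell in 1.5M KO, at 182, 199 and 226, by 0.49 (adjusted p = 0.0343). Nap1l1, a histone chaperone gene, rose from 9.89 ± 4.85 in P5 wt to 24.5 ± 5.49 in 1.5M wt (1.30, adjusted p = 0.0379) and was 9.21 ± 2.65 in 1.5M KO (−1.33, adjusted p = 0.0317). Among 29 initiation factor genes Eif1, which helps select the start codon, rose with age in wt from 31.8 ± 5.52 to 58.7 ± 8.07 (0.87, adjusted p = 0.00845). The paralog Rpl22l1, which the rule for members does not match, fell with age in wt from 18.3 ± 2.11 to 8.64 ± 3.04 (−1.04, adjusted p = 0.0262), with fractional values in 7 libraries.

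Of 18 tested genes known to act on ribosomal protein genes or TOP mRNAs, 2 were called. Eif4ebp1, an mTOR-controlled repressor of cap-dependent translation, counted 5.68, 3.25 and 2.93 in P5 wt, 3.63, 1.45 and 7.20 in P5 KO, 0 in all 3 1.5M wt libraries and 2.88, 4.47 and 4.31 in 1.5M KO. Its difference passed with age in wt (adjusted p = 0.0034) and between KO and wt at 1.5M (adjusted p = 0.00267), so the 1.5M wt libraries stand below the other 9. Cnbp, a zinc-finger protein known to bind TOP mRNAs, rose with age in wt from 8.75 ± 3.70 to 19.4 ± 3.21 (1.12, adjusted p = 0.0447). Levels of mRNA for such factors do not measure their activity.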

How the data were processed

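Cells lysed in the tube received spike-in RNA and were reverse transcribed from an oligo-dT primer with a molecular barcode, per the labels' protocols. TopHat2 and mm10 are named in the submitters' processing notes, without the TopHat2 release. The annotation, counting tool, strand setting and scaling were not given in sources used here. The authors deposited a signal per gene symbol and library, which from its values is a molecule count scaled to a total of 37092 per library. Between 92.6% and 94.9% of nonzero entries per library equalled a whole number of steps (tolerance 0.01), under the 95% limit set for recovered counts, so the plan's branch for normalized values was used and approximate molecules gave the depths. The 12 libraries were counted as 3 replicates in each of 4 groups.

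Genes above 0 in at least 3 libraries (10023) were fitted as log2(signal + 1) by limma (version 3.58.1, R version 4.3.3), using 4 group means and a trend of the variance on the mean. All gene p-values are two-sided from this fit, Benjamini-Hochberg adjusted over all genes, and called means an adjusted p under 0.05. The pseudocount understates differences of low genes. The fit was tested on simulated counts. A 3' tag count has an interval set by molecules alone only as a lower bound on its error.

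Members named were those given by role, every member called, the 5 highest and 5 lowest, and the 3 most positive and 3 most negative per comparison with a mean of at least 10; a few genes that this rule names are not reported here. Genes outside the family came from lists of related ribosomal, elongation, initiation, TOP, biogenesis, polymerase I, regulator, mitochondrial ribosomal and proteasome genes and from cell markers. The members and lists were chosen with earlier results of these data known. The motifs, run lengths and window at the promoter, the group of other genes with a mean of at least 25, and the alternatives without Langerhans cell markers, without members with fractional values and with the genes of no variance kept were chosen after seeing the data. Positions and promoters are from RefSeq on GRCm38.p6 and mRNA lengths from GENCODE on GRCm38. Alternatives covered pseudocount, filter, scaling, depth, model, the replicate block and leaving out each library.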

Additional observations from a re-analysis of the deposited data

How the results depend on the processing

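Of the alternatives, those for pseudocount, filter, scaling, depth and model are given first, as the number of members called. Between KO and wt at 1.5M, 1 member was called, and the number was 2 with a pseudocount of 0.1, 0 with 10, 0 without a filter, 3 for genes above 0 in at least 6 libraries, 4 under median-of-ratios, 0 under trimmed-mean and 0 under quantile scaling, 2 with ribosomal protein genes left out of the scaling, 5 without Langerhans cell markers, 2 after thinning and 9 with voom. With age in wt, 4 were called, against 7 for genes above 0 in at least 6 libraries, 2 under median-of-ratios and 2 under trimmed-mean scaling (1 of the 2 higher in each), 10 under quantile scaling and 7 with voom. With age in KO, 2 were called, against 5 under quantile scaling, 1 after thinning and 12 with voom. The calls over all genes moved too, so these counts are not results about the members alone. At 1.5M they were 529 of 10023 as fitted, 660 under trimmed-mean scaling, 345 of 8933 after thinning and 865 of 10023 with voom. With age in wt they were 522 as fitted, 446 under trimmed-mean and 503 under quantile scaling, and 634 with voom. With age in KO they were 315 as fitted, 328 under quantile scaling, 176 after thinning and 910 with voom. A fit of the 6 libraries of a comparison alone gave 1 with age in KO when genes without variance were dropped, and 0 when they were kept. With age in wt dropping them gave 6 and keeping them gave 1. Over all genes, dropping and keeping them gave 233 and 86 calls with age in KO, and 370 and 111 with age in wt. Leaving out 1 library at a time gave 0 to 2 at P5, 0 to 2 at 1.5M, 2 to 5 with age in wt, 1 to 2 with age in KO and 0 to 0 for the difference of effects. The member median was −0.15 at P5 under median-of-ratios and −0.14 under quantile scaling, −0.0049 at 1.5M under trimmed-mean scaling and −0.25 without Langerhans cell markers. With age in wt it was −0.032, −0.021 and −0.13 under median-of-ratios scaling, trimmed-mean scaling and without Langerhans cell markers, and with age in KO −0.073 under median-of-ratios scaling. Trimmed-mean scaling turned its sign with age in KO (0.18) and for the difference of effects (0.13), which was −0.12 under median-of-ratios scaling. That difference, −0.0034 as fitted, has no stable sign: it was positive in 9 of 12 fits with 1 library left out and in 5 of 13 other alternatives. Its range over left-out libraries was −0.020 to 0.11, with the highest values without P5 wt library 1 (0.10), P5 KO library 2 (0.11) and 1.5M KO library 1 (0.07). The other medians ran from −0.28 to −0.17 at P5, −0.21 to −0.12 at 1.5M, −0.28 to −0.23 with age in wt and −0.26 to −0.13 with age in KO. Summed shares without Langerhans cell markers were 17.9% (P5 wt), 16.3% (1.5M wt) and 13.6% (1.5M KO), and without members with fractional values 12.8%, 11.03%, 10.8% and 9.55% (P5 wt, P5 KO, 1.5M wt, 1.5M KO). Leaving out 1 library they ran over 16.7% to 17.5%, 13.8% to 15.3%, 14.2% to 14.5% and 12.4% to 13.0%. The cause of these shifts was not tested. Replicate numbers showed no clear pairing of the libraries. Same-numbered libraries correlated at −0.0676 to 0.179 over 18 pairs, and differently numbered libraries at −0.159 to 0.132. Such weak correlations cannot show whether libraries shared a batch. The replicate block gave 0, 1, 5, 2 and 0 called members in the 5 comparisons. Depth limits the paralogs seen as a few molecules.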
